A study of Agaricus blazei with 33 samples.

Results

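The 4 genes A06219, A08707, A01017 and A04048 are those hydrophobin genes of *Agaricus blazei* that the study names as higher in primordia than in mycelia. They are 4 of the 25 genes with the Pfam domain PF01185 (fungal hydrophobin) in a deposited table of 10337 genes. The study itself counts fewer hydrophobin genes, these 4 included, and reports the rest of its set as lower in primordia. The other hydrophobin genes counted below are those of the deposited table. Hydrophobins are small secreted proteins of filamentous fungi with a conserved pattern of cysteines. They assemble at the border between water and air into a film that is hydrophobic on its outer side, so that hyphae can leave a wet substrate and grow into air. In mushrooms, different members of the family are known from aerial hyphae, from the surface of the fruit body and, in *Schizophyllum commune*, from the lining of air channels inside it. All 4 genes are described by this domain alone, and no function of the single proteins was measured.

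RNA came from strain JA, a cultivated heterokaryon grown on compost, in 11 conditions with 3 libraries each (33 libraries). These were mycelia at 20 days after casing, primordia whose velum had not differentiated, and the fruit body at the button (BU), harvest (HA) and maturation (OP) stages, each sequenced as whole fruit body, as pileus (cap) and as stipe (stem). No treatment or mutant is involved. The labels do not say whether the 3 libraries of a condition came from separate cultures or fruit bodies, so the tests measure the spread between libraries, which may be technical. The reference assembly, JA-15036, is that of a sterile strain grown from one spore of JA.

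In the coordinates of this assembly, A06219 spans bases 2097501 to 2098029 of contig 2 (plus strand, coding length 336 bp) and A08707 bases 628653 to 629056 of contig 7 (minus strand, 348 bp). No other gene with the domain lies on these contigs. A04048, on contig 1 from 282132 to 282587 (minus strand, 345 bp), is likewise the only such gene of its contig. A01017, on contig 12 from 931430 to 931890 (minus strand, 345 bp), shares the contig with 4 other hydrophobin genes, the nearest of which, A01024, lies 24335 bp away. Of the others, 11 genes sit on contig 5 and 4 on contig 14. None of the 4 genes overlaps another gene of the table. The sources do not state whether reads with several alignments were counted. Reads of each of the 4 genes could thus be shared with related members of the family, which was not tested. StringTie predicted a gene on the opposite strand from 282618 to 284511, 30 bp from A04048, and another on the same strand from 281257 to 281908, 223 bp away on its other side. Nothing states whether the counting used strand, and reads at the ends of these genes could be shared.

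Levels are given as FPKM, reads per gene corrected for gene length and for a library size that matched median-ratio scaling. That scaling takes the median over genes of their ratio to the mean of the libraries. Each library held 15573864 to 21454052 reads on genes. A gene was called where limma, fitted to log2(FPKM + 0.1), gave a p adjusted over all genes tested below 0.05 and the groups differed by 1 or more on the log2 scale in either direction.

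Before the comparisons, the labels of pileus and stipe were checked. Of the 18 libraries, 16 correlated better across genes with the other libraries of their own group than with the other tissue of their stage. The library labelled button stipe 1 did not (mean correlation 0.925 with the other button stipes and 0.939 with the button pilei). Neither did the library labelled maturation pileus 3 (0.884 and 0.937). Both were kept under their labels, and the comparisons of pileus and stipe are also given without them, an alternative chosen after seeing the data. As they were picked for likeness to the other tissue, leaving them out favours larger differences between pileus and stipe. Such values are no independent support. Meiosis takes place on the gills of the pileus, and 6 genes with domains of meiotic proteins served as a second check. Of these, 4 were called higher in pileus than in stipe at harvest (16.7% of all genes) and 4 at maturation (13.6%). The others, A03768 and A04333, were not called. Their log2 fold changes, pileus minus stipe, were 0.055 and -0.303 at harvest and 0.065 and -0.212 at maturation. At the button stage, which holds one of the doubted libraries, limma and voom called 0 of 6 (7.91% of all genes by limma), with 1 at an unadjusted p below 0.05, so the check says little there. Their summed FPKM overlapped at the button stage (259.6 to 283 in pilei, 226 to 324 in stipes). It was 316 to 409.5 in harvest pilei and 193 to 249.9 in stipes, and 282 to 777 and 207 to 226 at maturation. A09162, with the domain of Spo11, the enzyme that opens meiotic recombination, had an FPKM of 48.3, 23.4 and 38.2 in harvest pilei against 2.84, 3.29 and 2.41 in stipes. At maturation it had 108.7, 99.5 and 11.3 in pilei, the last being library 3, against 4.37, 2.71 and 4.52 in stipes. At the button stage it had 4.85, 6.43 and 5.998 in pilei and 2.31, 2.19 and 1.87 in stipes, without passing the test (limma adjusted p = 0.0922). The sources name no defining marker for mycelia, primordia or stipe. In these bulk samples, fewer cells that express a gene and less RNA per cell cannot be told apart.

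A06219 was low in mycelia and among the most abundant genes of the table in primordia. Its FPKM was 3.60, 8.41 and 4.43 in mycelia (87 reads in the 3 libraries together) and 10741, 9249 and 13427 in primordia, a ratio of the means of 2033. In primordia it took 0.364 to 0.507% of all reads on genes and ranked 1 or 2 among all genes by FPKM. The study chose the 4 genes by this contrast, so it is given as a description without a test.

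In the fruit body, A06219 was called higher in the pileus than in the stipe at harvest and maturation. In button pilei its FPKM was 21936, 12296 and 15505. In button stipes it was 23911, 589 and 377, so the library labelled button stipe 1 lay above all pilei and the other stipes far below them. The log2 fold change, pileus minus stipe on the log2(FPKM + 0.1) scale, was 3.21 at this stage (standard error 1.41, limma adjusted p = 0.0958) and was not called. Without button stipe 1 it was 5.10 (adjusted p = 0.00346, with a range of 0.00346 to 0.346 over the single changes of setting), and without both doubted libraries it was also 5.10 (adjusted p = 8.66e-05). Both values passed the test, but leaving out button stipe 1, picked as nearer to the pilei, favours such a difference.

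At harvest the pilei had an FPKM of 17997, 10739 and 28412 and the stipes 112, 122 and 887. All pilei lay above all stipes, and A06219 was called higher in the pileus (log2 fold change 6.26, standard error 1.41, limma adjusted p = 0.00237). The medians differed 147-fold. At maturation the pilei had 35674, 67898 and 2282 and the stipes 174, 245 and 559, again without overlap (5.94, standard error 1.41, adjusted p = 0.00429). The pileus library 3, nearer to the stipes across genes, was the low one, and without the doubted libraries the value was 7.42 (standard error 0.77, adjusted p = 1.76e-06). In maturation pileus 2, A06219 alone made up 2.22% of all reads on genes.

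Between stages A06219 did not pass the test within either tissue. In pilei the log2 fold change was 0.13 from button to harvest (95% interval -2.88 to 3.14) and 0.00 from harvest to maturation (-3.00 to 3.01), where it was 1.48 without the doubted libraries (adjusted p = 0.135). In stipes it was -2.93 from button to harvest (standard error 1.41, limma adjusted p = 0.148) and -1.04 without them, and 0.33 from harvest to maturation (adjusted p = 0.903). The whole fruit bodies varied widely. Button fruit bodies had an FPKM of 17562, 783 and 17241, harvest fruit bodies 12653, 5916 and 2412, and maturation fruit bodies 152, 24765 and 29761. The low libraries, button fruit body 2 and maturation fruit body 1, also correlated better across genes with the stipes of their stage (0.963 and 0.979) than with its pilei (0.870 and 0.846). Harvest fruit body 2 (0.919 and 0.903) and maturation fruit body 2 (0.937 and 0.923) were nearer to the stipes too, by less. A06219 was not the lowest of its stage in either. Harvest fruit body 3, where A06219 was lowest at that stage, was nearer to the pilei (0.929, against 0.921 with the stipes). The share of pileus in each whole sample is not recorded, and its part in these values was not tested.

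**Figure D1:**
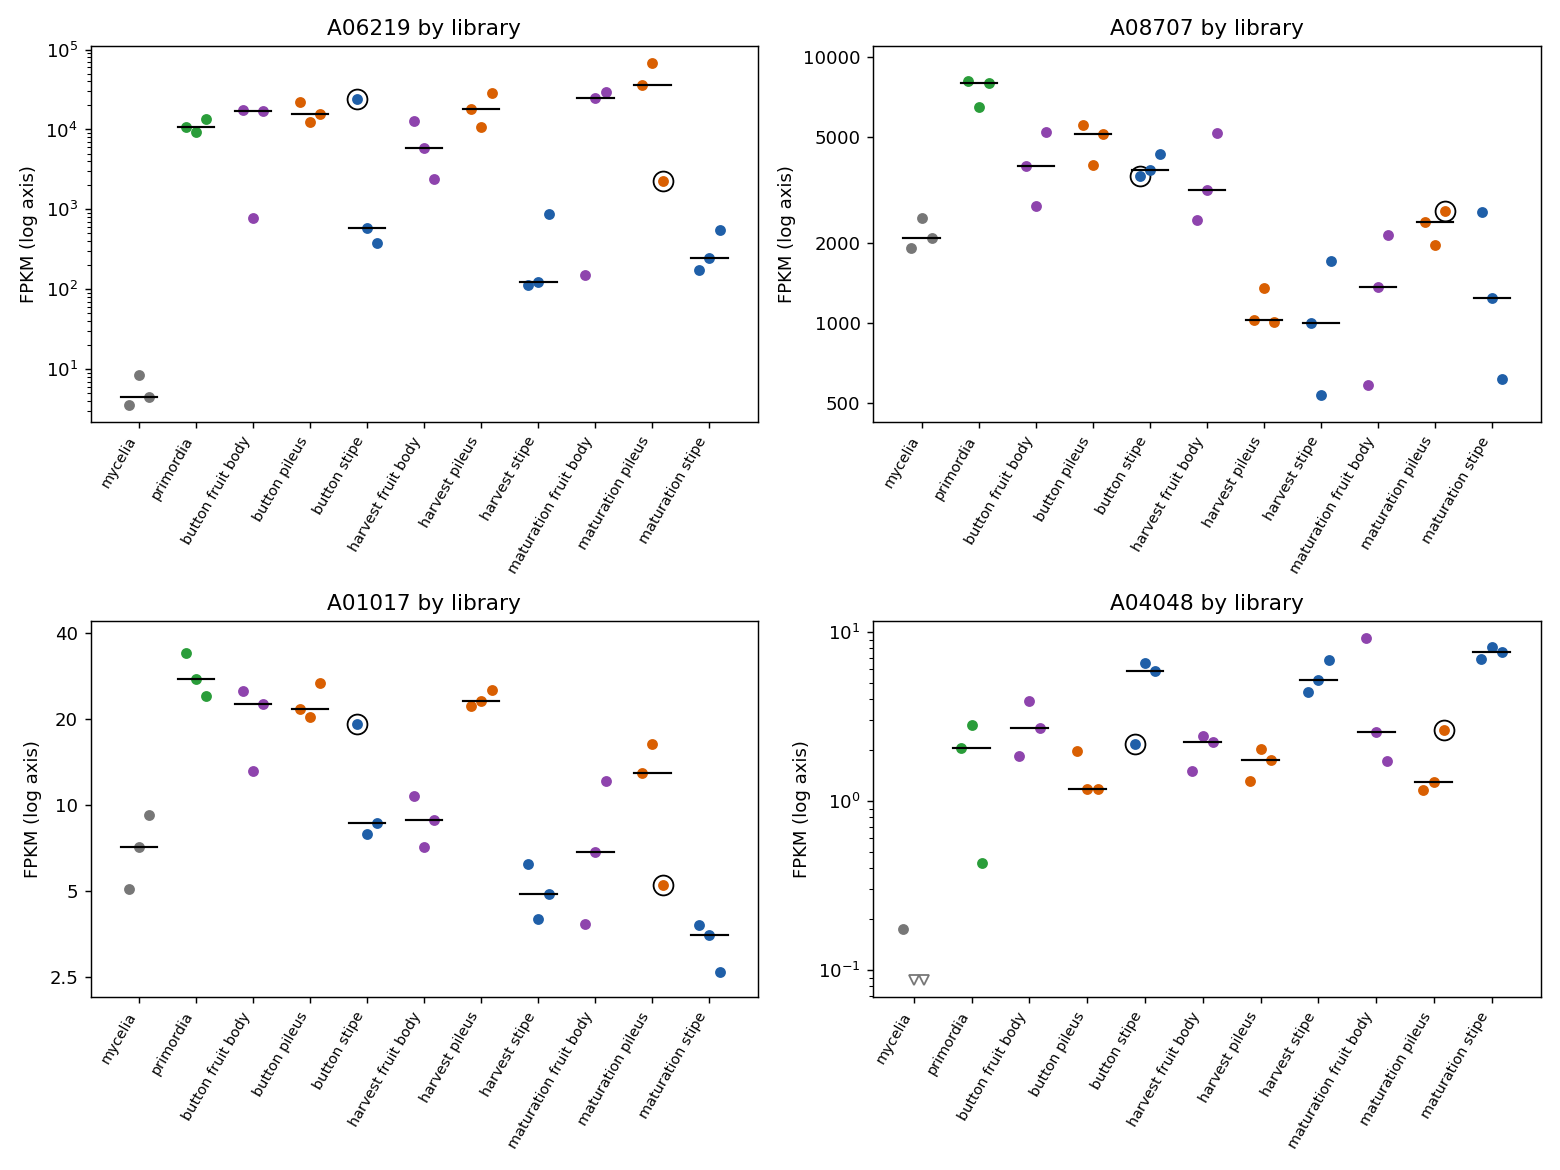
FPKM of the 4 hydrophobin genes in each of the 33 libraries, on a log axis by condition. Points are libraries in the order of their replicate number, lines are medians, open triangles are libraries with no read, and circles mark the libraries labelled button stipe 1 and maturation pileus 3. A06219 lies at 3.60 to 8.41 in mycelia and at 10739 to 67898 in all pilei but the circled one, while the 3 highest medians of A04048 are those of the stipes.

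A08707 differed from A06219 in that it was already abundant in mycelia and showed no detectable preference for pileus or stipe. Its FPKM was 1906, 2474 and 2094 in mycelia and 8118, 6459 and 7957 in primordia, a ratio of means of 3.48, given as a description. Primordia were the highest condition of this gene, with no overlap with the next one, the button pilei. It ranked 4 among all genes in each primordia library.

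In button pilei A08707 had an FPKM of 5564, 3914 and 5137 and in button stipes 3554, 3748 and 4312. These ranges overlapped, with a log2 fold change of 0.32 (95% interval -0.64 to 1.28, limma adjusted p = 0.608). At harvest it had 1027, 1356 and 1009 in pilei and 1002, 534 and 1705 in stipes, a difference of 0.21 (-0.75 to 1.17, adjusted p = 0.714). At maturation it had 2403, 1960 and 2630 in pilei and 2602, 1236 and 618 in stipes (0.88, -0.08 to 1.84, adjusted p = 0.128). The intervals leave room for differences of more than 1 on the log2 scale in favour of the pileus. Maturation stipe 1 lay at the level of the pilei, and without it the difference was called (1.41, adjusted p = 0.0211, against 0.0211 to 0.519 over the alternatives).

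A08707 fell from button to harvest in both parts of the fruit body. In pilei the log2 fold change was -2.10 (standard error 0.45, limma adjusted p = 0.0407), and no library of the stages overlapped. In stipes it was -1.99 (standard error 0.45, adjusted p = 0.00609), also without overlap. The call in pilei was lost when any of the 6 libraries of that comparison was left out (adjusted p = 0.0834 to 0.189), while the change stayed between -2.25 and -2.001, and it held without the doubted libraries (adjusted p = 0.0105). From harvest to maturation the pilei were higher by 1.05 (standard error 0.45) without passing the test (adjusted p = 0.0866), although the libraries did not overlap. In stipes this step was 0.37 (adjusted p = 0.607).

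The whole fruit bodies did not follow their parts at harvest. A08707 had an FPKM of 3903, 2760 and 5225 in button fruit bodies, 2440, 3164 and 5170 at harvest, and 582, 1365 and 2137 at maturation. All 3 harvest fruit bodies thus lay above all 6 harvest pilei and stipes, of which the highest was at 1705. At this stage 5.74% of 9217 genes had all whole libraries above all parts, against 0.14% at the button and 0.334% at the maturation stage. This pattern was noticed after the values were seen and is a description. The change of the whole fruit body from button to harvest was -0.17 (95% interval -1.39 to 1.06, limma adjusted p = 0.933). That from harvest to maturation was -1.52 (standard error 0.54, adjusted p = 0.0838), without overlap. It was called without maturation fruit body 3 (-1.94, adjusted p = 0.0276) and in a fit of all 33 libraries (adjusted p = 0.0103), against 0.0103 to 0.246 over the alternatives.

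A01017 was expressed at a much lower level and, like A06219, was higher in the pileus. It had an FPKM of 5.08, 7.10 and 9.22 in mycelia and 34.2, 27.6 and 24.1 in primordia, a ratio of means of 4.01. Recovered reads ranged from 29 to 47 in the mycelia libraries and from 167 to 282 in primordia. This contrast is again that by which the gene was chosen.

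In button pilei A01017 had an FPKM of 21.7, 20.3 and 26.7, and in button stipes 19.2, 7.90 and 8.62, the high stipe being library 1. The pileus was called higher (log2 fold change 1.05, standard error 0.38, limma adjusted p = 0.0475), close to both thresholds. The call was lost in 8 of 18 alternatives, among them leaving out any button pileus, button stipe 2 or button stipe 3, and their adjusted p-values ran from 0.00566 to 0.199. Without the doubted libraries it was 1.45 (adjusted p = 5.49e-05). At harvest the pilei had 22.2, 23.1 and 25.2 and the stipes 6.20, 3.99 and 4.89, a difference of 2.22 (standard error 0.38, adjusted p = 0.000397). At maturation the pilei had 12.9, 16.4 and 5.25 and the stipes 3.79, 3.497 and 2.59 (1.65, standard error 0.38, adjusted p = 0.00357). Pilei and stipes did not overlap at any of the 3 stages, and the calls at harvest and maturation held in all 18 alternatives.

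Over time A01017 was called lower at one step in each part, and both calls depended on single libraries. In pilei the change was 0.04 from button to harvest and -1.17 from harvest to maturation (limma adjusted p = 0.0280). The latter call was lost without maturation pileus 3 (-0.68) and without any of the harvest pilei (adjusted p = 0.0586 to 0.107 over these 4). In stipes it was -1.13 from button to harvest (adjusted p = 0.0435). This call was lost without button stipe 1 (-0.73), button stipe 3 or any harvest stipe (adjusted p = 0.0539 to 0.176 over these 5). Without both doubted libraries the changes of -0.68 and -0.73 had adjusted p-values of 0.0159 and 0.0136 and were not called because they were smaller than 1. Whole fruit bodies had an FPKM of 24.97, 13.1 and 22.6 at the button stage, 10.7, 7.09 and 8.89 at harvest, and 3.83, 6.82 and 12.1 at maturation. The step from button to harvest was -1.14 without overlap (adjusted p = 0.268).

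A04048 had low levels throughout and was the only one of the 4 genes called higher in the stipe. Mycelia had 1 read in the 3 libraries together, and primordia had 41, at an FPKM of 2.06, 2.80 and 0.432. The ratio of the means was 30.2, with a 95% counting interval of 5.001 to 1192. Even in stipes it had at most 49 reads in a library, so its values carry a large counting error.

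At the button stage A04048 had an FPKM of 1.96, 1.18 and 1.18 in pilei and 2.17, 6.58 and 5.86 in stipes. The library labelled button stipe 1, high for A06219, was the low stipe here. The log2 fold change, pileus minus stipe, was -1.58 (standard error 0.39, limma adjusted p = 0.0081), and -2.07 without the doubted libraries (adjusted p = 1.87e-05). At harvest the pilei had 1.32, 2.03 and 1.74 and the stipes 4.40, 5.21 and 6.84 (-1.63, standard error 0.39, adjusted p = 0.0035). At maturation the pilei had 1.16, 1.29 and 2.63, the last being library 3, and the stipes 6.90, 8.16 and 7.58 (-2.18, standard error 0.39, adjusted p = 0.00076). The tissues did not overlap at any stage. The call at the button stage was lost without button stipe 2 (adjusted p = 0.0515, against 0.000357 to 0.0515 over the alternatives).

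No change of A04048 between stages passed the test. In pilei the steps were 0.24 and -0.07 on the log2 scale and in stipes 0.29 and 0.47, with adjusted p-values of limma from 0.44 to 0.914. Whole fruit bodies had an FPKM of 1.83, 3.88 and 2.69 at the button stage, 1.51, 2.42 and 2.22 at harvest, and 9.16, 2.56 and 1.73 at maturation. The high ones at the button and maturation stages, libraries 2 and 1, were those in which A06219 was low. At harvest this did not hold, as A04048 was highest in library 2 (2.42) and A06219 lowest in library 3 (2412).

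**Figure D2:**
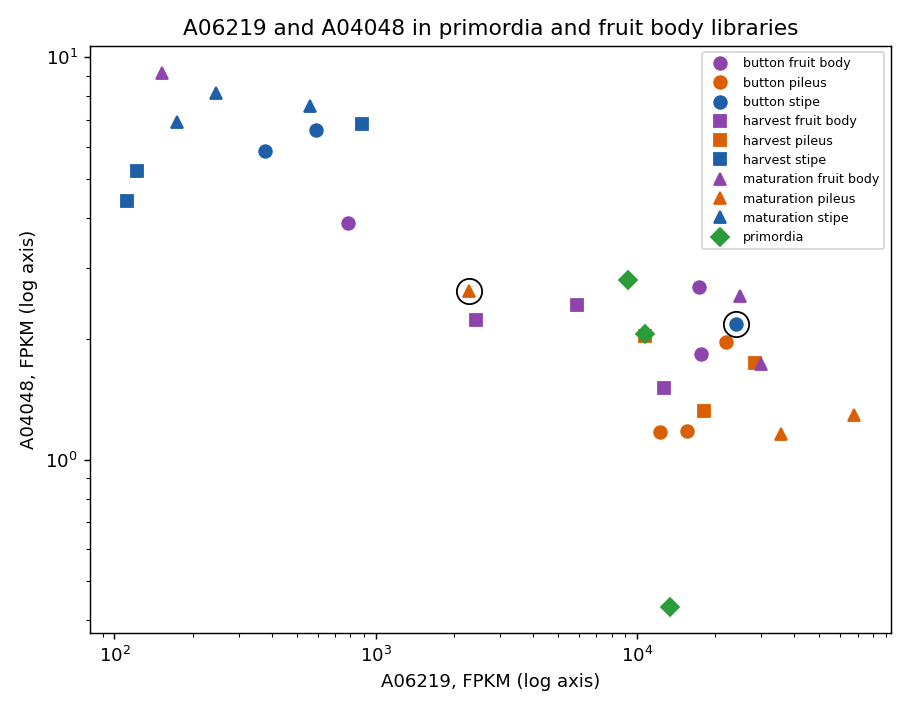
FPKM of A04048 against that of A06219 in each primordia and fruit body library, both on log axes, with the tissue by colour and the stage by symbol. The other stipe libraries sit at the upper left and the other pilei at the lower right. The circled libraries labelled button stipe 1 (A06219 at 23911, A04048 at 2.17) and maturation pileus 3 (2282 and 2.63) lie away from their groups.

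Counted over the 4 genes, 2 were called between pileus and stipe at the button stage, where limma called 17.9% of all genes tested (7.91% higher and 9.96% lower in the pileus). At harvest 3 were called, against 31.6% of all genes (16.7% higher and 14.9% lower). At maturation 3 were called as well, against 25.1% (13.6% higher and 11.5% lower). A01017 was called higher in the pileus and A04048 lower at each stage, and A06219 was called higher at the later ones. Without the doubted libraries 3 of the 4 were called at each stage, where 29.5%, 34% and 38.4% of all genes were called. The change of the difference between pileus and stipe from button to maturation was tested itself. Here limma called 0 of the 4 genes (9.38% of all genes, 5.9% higher and 3.48% lower), 0 had an unadjusted p below 0.05, and voom on the recovered reads called 0. The estimate for A06219 was 2.73 with a 95% interval of -1.52 to 6.98, which spans changes in either direction, and leaving out 1 library at a time moved it from 0.84 (without button stipe 1) and 1.76 (without maturation pileus 2) to 4.21 (without maturation pileus 3). Without the doubted libraries limma also called 0 of the 4, where it called 26.6% of all genes. A01017 then had 0.68 at an unadjusted p of 0.0364 (adjusted p = 0.0781), and A06219 had 2.32 with an interval of -0.009 to 4.65 (adjusted p = 0.102).

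Along the stages, A08707 was the 1 gene called lower in the harvest than in the button pileus, a step at which 0.728% of all genes were called (0.578% higher and 0.15% lower). From harvest to maturation A01017 was the 1 gene called lower in the pileus, against 18.4% of all genes (9.64% higher and 8.78% lower). In the stipe 2 genes (A08707 and A01017) were called lower from button to harvest, against 12% of all genes (5.79% higher and 6.19% lower). From harvest to maturation in the stipe limma and voom called 0, with 0 at an unadjusted p below 0.05 (8.47% of all genes, 3.78% higher and 4.69% lower). In whole fruit bodies limma and voom called 0 of the 4 at both steps, with 1 gene at an unadjusted p below 0.05 at each. Of all genes, limma called 0.236% from button to harvest (0.0751% higher and 0.161% lower) and 13.4% from harvest to maturation (6.93% higher and 6.46% lower).

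**Figure D3:**
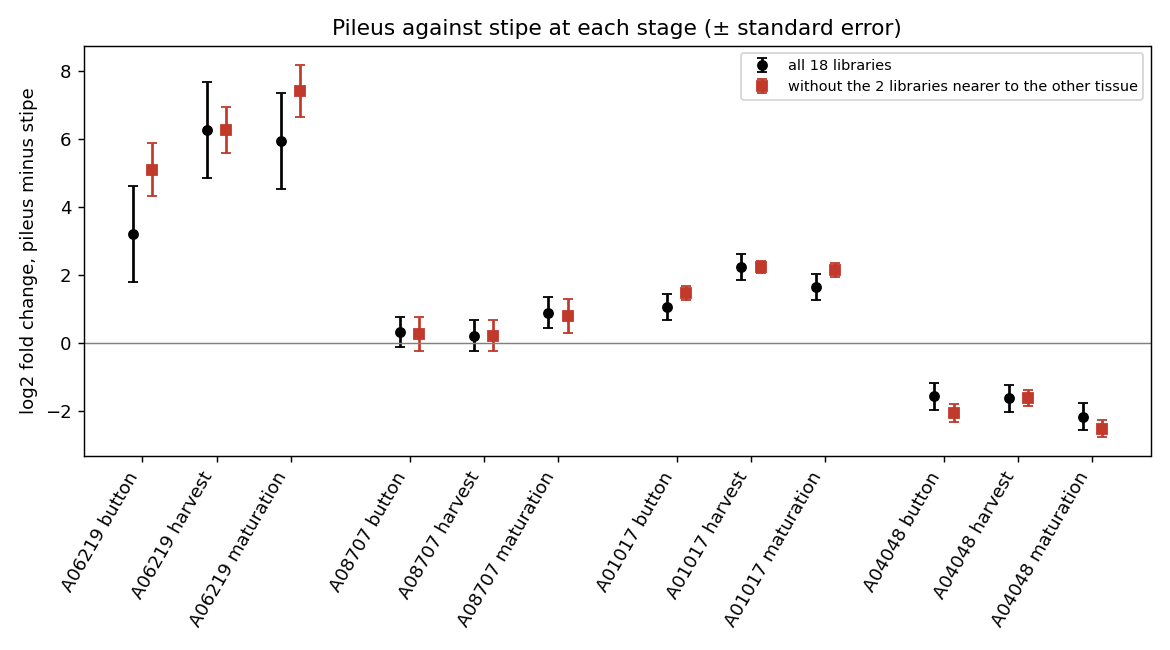
Log2 fold change, pileus minus stipe, of each gene at the button, harvest and maturation stages, with standard errors of limma. Black points use all 18 libraries and red squares leave out button stipe 1 and maturation pileus 3. A06219 and A01017 lie above 0, A04048 below 0, and A08707 at 0.32, 0.21 and 0.88 was not called, and the 2 libraries move the button value of A06219 from 3.21 to 5.10.

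As levels per length, A06219 and A08707 had higher mean FPKM than A01017 and A04048 in every condition but mycelia, where A06219 (5.48) was below A01017 (7.13). A06219 exceeded A08707 in all 3 primordia libraries, in all button and harvest pilei, in 2 of 3 maturation pilei and in none of the mycelia, harvest stipe or maturation stipe libraries. A06219 was the highest of all hydrophobin genes in 18 of the 33 libraries, A08707 in 6, A07658 in 6 and A01024 in the 3 of mycelia. A01017 and A04048 together made up no more than 0.423% of the summed FPKM of the family in any library.

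The order of the conditions by median FPKM differed between the genes. For A06219 it ran from maturation pilei, maturation fruit bodies and harvest pilei down to the stipes and then mycelia, and 9 of the 10 pairs of neighbours overlapped in range. The separate pair was harvest stipes and mycelia. For A08707 it ran from primordia and button pilei to harvest pilei and harvest stipes, with mycelia in the lower part of the order, and 9 of 10 neighbours overlapped. For A01017 it ran from primordia and harvest pilei to the stipes of harvest and maturation, below mycelia, and 8 of 10 overlapped. For A04048 the 3 stipe conditions stood at the top and mycelia at the bottom, and 7 of 10 overlapped.

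The share of the 4 genes in the hydrophobin transcripts differed widely between conditions. Their part of the summed FPKM of the 25 genes was 6.50 to 8.004% in mycelia, where A01024, on the contig of A01017, was the highest of the family with a mean FPKM of 13165. In primordia the share was 72.4 to 73.7%, in harvest pilei 92.7 to 97.1% and in maturation pilei 97.0 to 99.9%. Since they were chosen as higher in primordia, the step from mycelia is no result of its own. In harvest stipes the share was 3.11 to 20.9%, and A07658, on contig 5, had a mean FPKM of 18789 there. The other stipes had larger shares, 60.1, 65.3 and 98.4% at the button stage and 35.7 to 59.1% at maturation. The value of 98.4% was that of the doubted library, button stipe 1. The summed FPKM of the family was 26337 to 34059 in mycelia and 2402 to 4717 in maturation stipes. In maturation pilei it was 38141 and 69979 in libraries 1 and 2 and 5071 in the doubted library 3, just above the stipes.

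Of the other 21 hydrophobin genes, 19 in mycelia had a mean FPKM of at least 1, against 10 in primordia and 5 in maturation pilei. Of the 10 that passed the filter in the fit of pileus and stipe, 4 were called lower in the button pileus (9.96% of all genes), 5 at harvest (14.9%) and 5 at maturation (11.5%). A01044 was called higher in the button pileus, though not without the doubted libraries, where 5, 5 and 6 genes were called lower. These counts describe the genes that passed. A07659 and A07644 had mean FPKM of at most 0.457 and 0.14 in pilei and passed through their stipe values, so their difference follows from the filter. A07658 had an FPKM of 8298 to 30225 in harvest stipes and of 10.4 to 12.5 in harvest pilei.

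**Figure D4:**
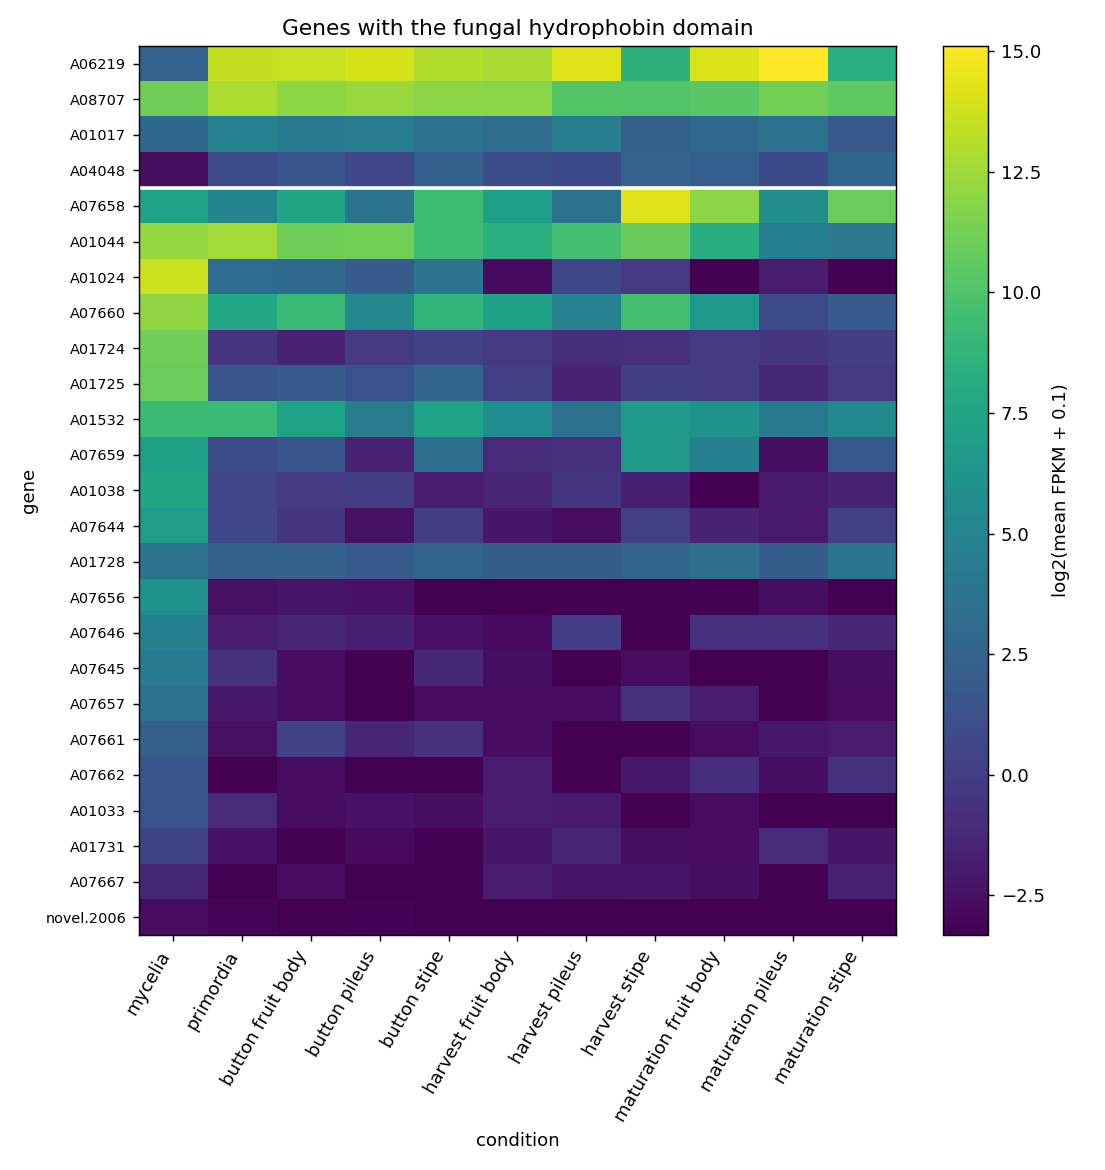
Mean expression of the 25 genes with the fungal hydrophobin domain in the 11 conditions, as log2(mean FPKM + 0.1). Rows are genes, with the 4 named genes above the white line and the others below in order of their mean. Of the 21 other genes, 19 reach a mean FPKM of 1 in mycelia and 5 in maturation pilei, and A07658 reaches 18789 in harvest stipes.

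Genes with patterns alike were sought over the 11 condition means, by Pearson's r of log2(mean FPKM + 0.1) among the 9049 genes whose mean FPKM reached 1. These points share their libraries and scaling, and the correlations are a description. The means include the doubted libraries. That of A06219 in button stipes (8292) was raised by the library labelled button stipe 1 (23911, against 589 and 377 in the others). For A06219 the highest were a StringTie gene at bases 1215539 to 1216163 of contig 5 (0.98), the transporter gene A01518 of the major facilitator superfamily (0.97) and A04015 (0.97), each lowest in mycelia. For A08707 they were A05371 (0.93), a StringTie gene at 471789 to 473178 of contig 17 (0.90) and A06687 (0.89), which have no description in the table. For A01017 they were A07003 (0.98), the enoyl reductase gene A04473 (0.98) and the sugar transporter gene A10032 (0.97). For A04048 they were a StringTie gene at 595233 to 597230 of contig 9 (0.98), A02061 (0.97), with the domain of tyrosinase, the copper enzyme of melanin formation, and A02923 (0.97), with a methyltransferase domain. A02061 was far more abundant, with a mean FPKM of 22897 in maturation stipes against 3479 in maturation pilei. Pearson's r leaves out the size of a change. The condition means of A04015 ran only from 27.7 to 41.7, those of A06219 from 5.48 to 35285.

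Among the 4 genes the correlations over the conditions were lower. The highest were those of A01017 with A08707 (0.61) and with A06219 (0.60), and the lowest was that of A01017 with A04048 (-0.24). No other hydrophobin was more alike to A06219 than A01017, which stood at place 1121 of the genes compared.

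The genes next to the 4 had other levels, but some had the same direction between pileus and stipe. Their means are given as a description. A06218, with an ATPase domain, and A06220, of the major facilitator superfamily, flank A06219 at 693 and 733 bp. They had mean FPKM of 17.97 and 61.1 in mycelia and 31.4 and 58.1 in primordia. In button, harvest and maturation pilei A06218 had 43.0, 41.9 and 30.6, against 20.3, 9.84 and 6.37 in stipes. It was thus higher in the pileus at each stage, as was the mean of A06219. A06220 had 66.9, 53.0 and 36.7 in these pilei and 23.8, 36.3 and 37.6 in these stipes. A08706, a ribosomal protein L27e gene 1123 bp from A08707, had a mean FPKM of 1305 in button pilei and 244 in button stipes, and A08709, a transporter gene on the other side, 3.39 and 6.24. A01016, a subunit of a kinase of RNA polymerase, and A01018, with a NACHT domain, flank A01017. They had mean FPKM of 36.9 and 3.13 in mycelia and 73.1 and 6.13 in primordia. In button, harvest and maturation pilei A01018 had 4.80, 7.69 and 4.50, against 3.81, 2.21 and 1.98 in stipes. Like A01017, it was higher in the pileus at each stage. A01016 had 55.9, 46.5 and 31.3 in these pilei and 67.9, 45.9 and 25.4 in these stipes. Beside A04048, the predicted gene on the opposite strand had a mean FPKM of 1.49 in mycelia, 40.7 in primordia, 6.15 in maturation pilei and 31.3 in maturation stipes. The one on the same strand had 0.0393 in mycelia, 0.995 in primordia, 0.397 in maturation pilei and 2.14 in maturation stipes. Its means were 0.605 and 0.438 in button and harvest pilei against 1.32 and 1.49 in the stipes of these stages. They were thus higher in the stipe at all 3 stages, as were those of A04048. At the button and harvest stages the gene on the opposite strand had 33.7 and 18.7 in pilei and 23.6 and 13.6 in stipes, so its means were higher in the stipe only at maturation, while those of A04048 were higher there at all 3 stages. The part of both genes in the reads of A04048 was not tested.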

How the data were processed

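RNA of 33 libraries (11 conditions, 3 each) was sequenced on an Illumina HiSeq platform. The authors trimmed the reads, aligned them to JA-15036 with Hisat2, predicted additional genes with StringTie, and counted reads per gene with featureCounts 1.5.0-p3. The deposited values are FPKM, that is, reads over gene length and a library size, which was not the read total. They are whole multiples of 1 read for 100% of values (tolerance 1e-06), and the recovered totals were 15573864 to 21454052 reads (median 18106545). The size used by the authors was 0.742 to 1.22 times these totals. It matched median-ratio scaling over the 33 libraries, with a largest difference of 2.78e-13%. The interval on a ratio of reads covers counting error only.

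In the present work log2(FPKM + 0.1) was modelled by limma 3.58.1 (R 4.3.3, trended variance). One model held the 18 pileus and stipe libraries and 9338 genes, the other the 9 whole fruit bodies and 9316 genes, after dropping genes averaging below 0.5 FPKM. All 4 hydrophobin genes were kept. Calls required a Benjamini-Hochberg p, taken across every gene in the model, below 0.05 and a log2 change of 1 or more in size. Code was tested on simulated data. Alternatives varied the pseudocount (1, 0.01), filter (none, 5), scaling (median ratio, quantile, library totals), trend, libraries in the model, replicate block and tool (voom), and left out each library in turn. The median-ratio alternative could barely differ from the main fit, since the deposited values already carry that scaling, so it is no separate check. Omitting 2 doubted libraries jointly was chosen after seeing the data.

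The genes and lists were chosen with earlier results of these data known. Other genes were named by rule, namely the 3 most alike to each of the 4, the adjacent genes, genes with meiotic domains and the most abundant or nearest hydrophobin. A01044, A07659 and A07644 were named after their values were seen.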

Additional observations from a re-analysis of the deposited data

How the results depend on the processing

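The calls for A06219, A01017 and A04048 between pileus and stipe at harvest and maturation, and for A08707 in the stipe from button to harvest, held in every alternative run. The button difference of A01017 was no longer called without a filter or a trend (1.05 each) or with a pseudocount of 1 (0.98). Its change in the stipe from button to harvest was not called with quantile scaling (-0.91), with voom (-1.17) or without both doubted libraries (-0.73), nor was its change in the pileus from harvest to maturation without them (-0.68). Without them A06219 was called at the button stage (5.10) and A04048 in the stipe from button to harvest changed sign (-0.20). Quantile scaling turned the uncalled values of A04048 in the fruit body from button to harvest (0.027) and in the pileus from harvest to maturation (0.12), and of A06219 in the pileus at both steps (-0.33 and -0.87), the latter also with library totals (-0.41) and voom (-0.014). A fit of all 33 libraries called A08707 in the fruit body from harvest to maturation (-1.52). Its fall in the pileus was not called without a filter (-2.10, adjusted p = 0.0532), with voom (-2.10, 0.0594) or with the replicate block (-2.10, 0.0542), against 0.0221 to 0.189 over the single changes of setting. The labels do not say whether equal replicate numbers mark the same fruit body. In no comparison did all 3 correlations of equal numbers exceed 0.1, a limit that cannot decide this. Between pileus and stipe of a stage they ran from -0.0339 to 0.216, and between harvest and maturation stipes they were 0.151, 0.162 and 0.0754. The replicate block changed no other call. With 1 library left out at a time, values moved as follows. In the fruit body from harvest to maturation, A01017 ranged from -0.77 to 0.052, A06219 ranged from -1.54 to 2.26 and A08707 ranged from -1.94 to -1.001. For the pileus minus the stipe at the button stage, A01017 ranged from 0.81 to 1.45, A04048 ranged from -2.07 to -1.29 and A06219 ranged from 2.10 to 5.10. In the pileus from button to harvest, A01017 ranged from -0.039 to 0.16, A06219 ranged from -0.21 to 0.49 and A08707 ranged from -2.25 to -2.001. In the pileus from harvest to maturation, A01017 ranged from -1.49 to -0.68, A04048 ranged from -0.42 to 0.14 and A06219 ranged from -0.97 to 1.48. In the stipe from button to harvest, A01017 ranged from -1.36 to -0.73 and A04048 ranged from -0.20 to 0.58. In the fruit body from button to harvest, A06219 ranged from -1.62 to 0.62 and A08707 ranged from -0.46 to 0.078. In the stipe from harvest to maturation, A06219 ranged from -0.19 to 1.30 and A08707 ranged from -0.15 to 0.89. For the pileus minus the stipe at the harvest stage, A08707 ranged from -0.22 to 0.62. For the pileus minus the stipe at the maturation stage, A08707 ranged from 0.37 to 1.41. For the change of the pileus minus the stipe from button to maturation, A01017 ranged from 0.19 to 1.08, A04048 ranged from -0.95 to -0.11, A06219 ranged from 0.84 to 4.21 and A08707 ranged from 0.047 to 1.08. Library totals gave primordia over mycelia as 2.15 for A08707 and 2.36 for A01017 and moved the median of all genes from 0.01 to 0.37 for pileus minus stipe at harvest and to -0.40 in the pileus from harvest to maturation. Quantile scaling called 11 genes in place of 22 in the fruit body from button to harvest. Without the doubted libraries 2751 in place of 1669 genes were called at the button stage, 3589 in place of 2345 at maturation, 2489 in place of 876 for the change between them, 400 in place of 68 in the pileus from button to harvest and 1272 in place of 791 in the stipe from harvest to maturation. The filter at 5 removed A04048. Its 0 to 55 reads per library limit its precision, and with 3 libraries a group the intervals of A06219 span several log2 units.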
